A study of Mus musculus with 9 samples.

Results

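Integrins are receptors in the cell membrane that bind extracellular matrix or other cells on the outside and link to the actin cytoskeleton on the inside. Each receptor pairs an alpha subunit, which largely sets the ligand, with a beta subunit, whose short tail in the cytoplasm binds adaptor proteins such as talin and kindlin. The 10 genes described here encode 6 alpha subunits (*Itga1*, *Itga2*, *Itga3*, *Itga5*, *Itga6* and *Itgav*) and 4 beta subunits (*Itgb1*, *Itgb3*, *Itgb5* and *Itgb6*). They were selected by name from the authors' differential expression tables, with the changes given there for these genes already known, so their choice is not independent of that readout. All 10 were listed in both tables, among 13259 genes that both tables list. Hepatocytes bind laminin, collagen and fibronectin through such receptors, and *Itgb6* is best known from epithelia under repair.

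RNA was sequenced from AML12 cells, an established hepatocyte line that was derived from a mouse carrying a transgene for human TGF-alpha. The cells were grown with serum, insulin, transferrin, selenium and dexamethasone. The control group is labelled only as control for its hairpin, and the others received lentivirus with a hairpin that targets *Srrm2*, either shRNA 1 or shRNA 2, with day 5 of infection given on the labels of both. Each group held 3 libraries of the same line, and no source used here states whether they came from separate cultures. *Srrm2* encodes a large protein that scaffolds nuclear speckles, nuclear bodies rich in splicing factors.

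The values described here are the authors' mean normalized counts, which are read counts divided by a depth factor for each library and averaged. The mean of the shRNA 1 table pools the control and shRNA 1 libraries, and that of the shRNA 2 table pools control with shRNA 2 libraries. That all 3 controls entered both tables was taken from the sample titles, since the descriptions of 2 of them name a table of a further hairpin in place of the shRNA 2 table. A pooled mean holds no value for a single library, so no SD can be given, no difference was tested, and the depth of each library is unknown. The means of all listed genes sum to 6144608 in the shRNA 1 table and 6393456 in the shRNA 2 table. *Srrm2* itself had authors' means of 3428 and 3759, which pool control and knockdown cells and so cannot show the knockdown. Of 10 hepatocyte markers, 9 were listed. Their authors' means in the shRNA 1 table were 20192 for *Apob*, 9848 for *Krt18*, 8292 for *Krt8* and 2497 for *Ttr*. *Alb* was at 2151, *Hnf4a* at 1498, *Serpina1a* at 316, *Apoa1* at 39.4 and *Afp* at 10.8. The other of the 10, *Tf*, has no entry under that symbol in the gene annotation used, so its level was not looked up. Of 5 cholangiocyte markers, 4 were listed, with authors' means from 28.6 for *Cftr* to 2851 for *Krt19* in that table, and *Epcam* was not. Of 6 markers of stellate cells or fibroblasts, 3 were listed, *Vim* at 4378, *Des* at 8.03 and *Col1a1* at 3.85, while *Col3a1*, *Acta2* and *Pdgfrb* were not. Of 8 leukocyte markers, 3 were listed, with a summed authors' mean of 42.6, and none of 5 endothelial markers was listed. The libraries are of a cell line and not of tissue, and whether the RNA of these markers relates to the integrin levels was not tested.

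The tail of each subunit carries a short motif that the choice of genes did not use. In alpha subunits it is the juxtamembrane GFFKR motif, which clasps the beta subunit in the resting receptor, and in beta subunits it is the NPxY motif nearest the membrane, where x is any residue and where talin binds. The coding bases around these motifs are shown because each of the 6 alpha and the 4 beta members carries its motif. Within each family the motif begins at the same distance from the start of its exon. Other stretches were not compared. The bases were read from the longest coding transcript of each gene in GENCODE M1 on NCBIM37, the assembly of mm9. Capitals mark the codons of the motif, with 12 bases before and 9 bases after in lower case.
Itga1: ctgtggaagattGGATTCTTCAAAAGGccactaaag
Itga2: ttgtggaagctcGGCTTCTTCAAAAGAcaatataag
Itga3: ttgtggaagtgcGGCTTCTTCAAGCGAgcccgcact
Itga5: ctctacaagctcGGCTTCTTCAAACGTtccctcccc
Itga6: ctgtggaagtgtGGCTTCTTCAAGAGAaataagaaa
Itgav: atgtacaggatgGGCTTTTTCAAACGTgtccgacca
Itgb1: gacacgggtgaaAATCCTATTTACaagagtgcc
Itgb3: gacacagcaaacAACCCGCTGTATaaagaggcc
Itgb5: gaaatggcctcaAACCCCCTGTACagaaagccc
Itgb6: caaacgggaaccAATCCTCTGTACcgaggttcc

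All 6 alpha members held the motif in 15 bases, 10 of which were the same in all 6, and the 6 stretches of 15 bases were all different. In each alpha gene the motif began 3 bases after the start of its exon, so the 12 bases before it come from both sides of an exon junction. In each beta gene the motif began 6 bases after the start of its exon. For *Itga2* the motif lies in exon 30 of 30, at chr13:115626756-115626770 on the - strand, and for *Itga1* in exon 29 of 29, at chr13:115750325-115750339 on the - strand. For *Itga3* (chr11:94907887-94907901, - strand) and *Itga6* (chr2:71691594-71691608, + strand) it lies in exon 25 of 26, the exon before the last. For *Itgb1* the motif lies in exon 16 of 16, at chr8:131255929-131255940 on the + strand, and for *Itgb3* (chr11:104528400-104528411, + strand) in exon 15 of 15. Counts per gene do not tell apart transcripts that differ in these last exons.

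Levels of different genes were compared as the authors' mean normalized count per kilobase of exon, over all exonic bases that GENCODE M1 gives a gene. *Itgb1*, the beta subunit shared by most matrix receptors, had by far the highest level of the 10 in both tables, and *Itga3*, an alpha subunit of laminin receptors, came next. *Itgav*, which binds ligands with an RGD sequence, followed, and *Itga2*, an alpha subunit of collagen receptors, was next in both tables. The level of *Itgb1* was 10.7-fold that of the next beta subunit, *Itgb6*, in the shRNA 1 table and 10.6-fold in the shRNA 2 table. The lowest of the 10 was *Itgb3* in both tables. No error is attached to these folds, since the means are pooled, and with the longest coding transcript as length they were 7.72 and 7.69. With that length *Itgb6* (201 per kilobase) stood above *Itga2* (171) in the shRNA 1 table, and without any division by length *Itgav* stood above *Itga3* in both tables. For scale, the median level of all listed genes was 43.1 in the shRNA 1 table, and 9 of the 10 members lay above it. Among genes with an authors' mean of at least 10 there, *Itga6* and *Itga1* also fell below the median. They then stood at or above 48.7% and 46.2% of those genes.

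*Itgb1* (ENSMUSG00000025809.8, + strand of chromosome 8, 131209554 to 131257100 in mm9) had authors' means of 5927 in the shRNA 1 table and 5750 in the shRNA 2 table. Per kilobase these are 1452 and 1409, above 99.1% of the listed genes in both tables. Over the 4 beta members, *Itgb1* made up 85.9% of the summed level in the shRNA 1 table and 84.8% in the shRNA 2 table.

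*Itgb6*, *Itgb5* and *Itgb3* encode beta subunits that pair with the product of *Itgav*. *Itgb6* (ENSMUSG00000026971.9, - strand of chromosome 2, 60436349 to 60560700), an epithelial subunit whose pair with the *Itgav* product activates latent TGF-beta, had authors' means of 967 and 942, or 136 and 132 per kilobase. *Itgb5* (ENSMUSG00000022817.8, + strand of chromosome 16, 33829751 to 33949239), a receptor subunit for vitronectin, had authors' means of 233 and 270, or 69.2 and 80.4 per kilobase. *Itgb3* (ENSMUSG00000020689.3, + strand of chromosome 11, 104469370 to 104531790), which also serves platelets in a pair with *Itga2b*, had authors' means of 197 and 234, or 33.8 and 40.1 per kilobase. The order *Itgb1*, *Itgb6*, *Itgb5*, *Itgb3* was the same in both tables. Together the 3 genes other than *Itgb1* reached 239 per kilobase in the shRNA 1 table and 253 in the shRNA 2 table, below the level of *Itgav* alone.

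*Itga3* (ENSMUSG00000001507.9, - strand of chromosome 11, 94905788 to 94938115) had authors' means of 3304 and 3474, or 579 and 608 per kilobase. *Itga6* (ENSMUSG00000027111.8, + strand of chromosome 2, 71583673 to 71696473), the other alpha subunit for laminin in the set, had authors' means of 486 and 477, or 53.8 and 52.8 per kilobase. The level of *Itga3* was 10.8-fold that of *Itga6* in the shRNA 1 table and 11.5-fold in the shRNA 2 table. The exonic bases of *Itga6* (9025) are more than its longest coding transcript (4310), and with the longest coding transcript as length the levels in the shRNA 1 table were 680 for *Itga3* and 113 for *Itga6*, a fold of 6.03, and the fold in the shRNA 2 table was 6.46. GENCODE M1 also places 4 genes that are not listed within the span of *Itga6*, the lincRNAs Gm13662 (71587982 to 71597858) and Gm13663 (71585564 to 71588257) on its strand, and the lincRNA Gm17250 (71586132 to 71588219) and the pseudogene Gm13739 (71600295 to 71600824) on the other.

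*Itgav* (ENSMUSG00000027087.5, + strand of chromosome 2, 83564554 to 83647073) had authors' means of 3605 in the shRNA 1 table and 4529 in the shRNA 2 table, or 335 and 422 per kilobase. The pseudogene Dnmt3l-ps1 (83584641 to 83585893) and the lincRNA Gm13684 (83577939 to 83600022) overlap it on the other strand and are not listed. *Itga5* (ENSMUSG00000000555.6, - strand of chromosome 15, 103174720 to 103197194), the alpha subunit of the classical fibronectin receptor, had authors' means of 746 and 767, or 170 and 175 per kilobase. Of the collagen-binding subunits, *Itga2* (ENSMUSG00000015533.8, - strand of chromosome 13, 115626124 to 115722249) had authors' means of 721 and 987, or 171 and 234 per kilobase. *Itga1* (ENSMUSG00000042284.8, - strand of chromosome 13, 115748287 to 115892172) had authors' means of 398 and 526, or 49.8 and 65.7 per kilobase. *Itga2* and *Itga5* differed by a factor of 1.01 in the shRNA 1 table, so their order there is not settled, and 1.34 in the shRNA 2 table. *Itga6* stood above *Itga1* in the shRNA 1 table by a factor of 1.08 and below it in the shRNA 2 table by 1.24, but with the longest coding transcript as length it stood above *Itga1* in both, by 1.69 and 1.26.

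**Figure D1:**
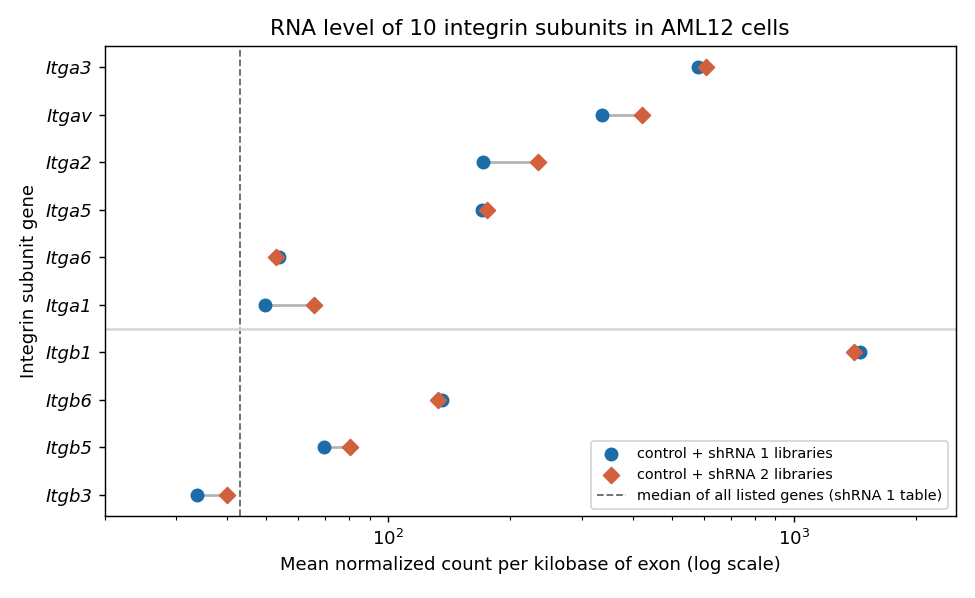
RNA level of the 4 beta (lower rows) and 6 alpha subunits (upper rows), as the authors' mean normalized count per kilobase of exon on a log axis. Circles pool control and shRNA 1 libraries, diamonds control and shRNA 2 libraries, without error bars because the means are pooled, and the dashed line is the median of all listed genes in the shRNA 1 table (43.1). *Itgb1* lies at 1452 and 1409, and *Itga2* at 171 and 234. These levels were not put on 1 scale between the tables.

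Grouped by ligand, the laminin-binding subunits *Itga3* and *Itga6* held 46.5% of the summed alpha level in the shRNA 1 table and 42.4% in the shRNA 2 table. The RGD-binding subunits *Itga5* and *Itgav* held 37.2% and 38.3%. The collagen-binding subunits *Itga1* and *Itga2* held 16.3% and 19.3%, of which *Itga2* alone made up 12.6% and 15.0%. In the sum of all alpha members the level was 1359 in the shRNA 1 table and 1558 in the shRNA 2 table. It was 1691 and 1662 for all beta members, a ratio of beta to alpha of 1.24 and 1.07. This ratio became 1.09 and 0.932 with the longest coding transcript as length, and 0.791 and 0.669 without division by length, so which sum is larger depends on the length used. These are RNA levels, and no protein or surface level was measured. Without division by length, the share of *Itgav* in the shRNA 1 table would be 38.9% in place of 24.7%, and that of *Itga2* 7.79%, and the RGD-binding group (47.0%) would pass the laminin-binding group (40.9%).

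**Figure D2:**
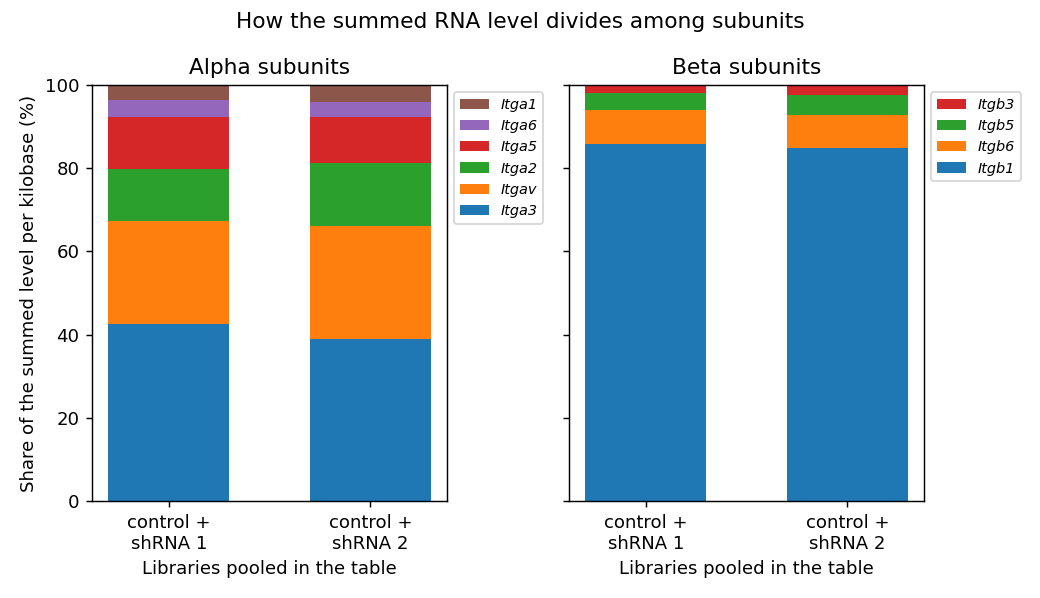
Share of the summed level per kilobase that each alpha (left) and beta subunit (right) held in the table pooling control and shRNA 1 libraries and in the table pooling control and shRNA 2 libraries. *Itga3* takes 42.6% and 39.0% of the alpha sum, and *Itgb1* 85.9% and 84.8% of the beta sum.

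If the same control libraries entered both tables with the same relative depth factors, the pooled means on 1 scale differ only through the hairpin libraries. The ratio of the shRNA 2 table to the shRNA 1 table was therefore taken for each gene, and its median over the 7757 genes whose authors' mean reached 100 in each table (0.07 in log2) was set to 0. Shared controls pull this ratio towards 0. If all 3 control libraries enter both and keep their relative depth factors in both tables, a ratio above 1 is a lower bound of the ratio between the hairpin groups themselves. *Itga2*, *Itga1* and *Itgav* had the highest ratios of the 10 members, and *Itgb1* and *Itgb6* the lowest. The value for *Itga2* was 0.39 in log2, or 1.31-fold, above 99.2% of the 7757 genes. The value for *Itga1* was 0.33 (1.26-fold, above 98.5% of these genes) and that for *Itgav* 0.26 (1.20-fold, above 96.8%). Among the 10 members the highest ratios were thus those of *Itga2* and *Itga1*, and whether they exceed the spread between libraries was not tested.

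*Itgb3* and *Itgb5*, partners of *Itgav*, followed with log2 ratios of 0.18 and 0.15. *Itgb6*, another such partner, had -0.11 and *Itgb1* also had -0.11, while *Itga6* had -0.09. *Itga5* had -0.03 and *Itga3* 0.00, and the sign of each of these 2 changed with the scaling, whereas the sign of the other 8 members was the same under every scaling tried. In all, 6 members were above 0 and 4 below, with a median of 0.08, beside 3878 genes above and 3878 below among the 7757. The 25th and 75th percentiles of those genes were -0.09 and 0.08, and the 95th was 0.22. Because the members were chosen with the changes of both hairpins known, these ratios are a description.

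A difference between the hairpin groups, in counts on the scale of the shRNA 1 table, was computed from the pooled means. It holds only if the same 3 controls entered both tables with the same relative depth factors. On that condition, the mean of the shRNA 2 libraries exceeded that of the shRNA 1 libraries by 441 normalized counts for *Itga2*, 206 for *Itga1* and 1432 for *Itgav*. For *Itgb1* the difference was -883, at an authors' mean of 5927. Without any scaling the log2 ratio of *Itga2* would be higher by the median, 0.07.

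**Figure D3:**
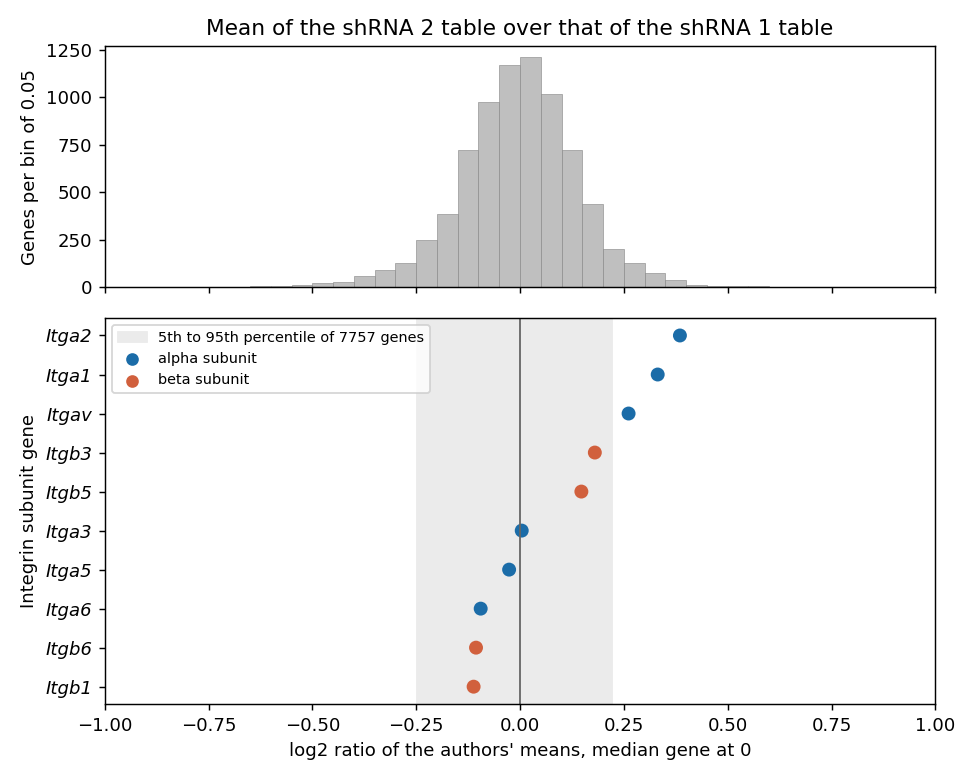
Log2 ratio of the authors' mean in the shRNA 2 table to that in the shRNA 1 table, with the median gene at 0. The upper panel counts the 7757 genes that set the scale in bins of 0.05 (ratios beyond the axis are placed in the outer bins), and the lower panel gives the 10 members with a band from the 5th to the 95th percentile, -0.25 to 0.22. *Itga2* (0.39), *Itga1* (0.33) and *Itgav* (0.26) lie to the right of the band.

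*Itga2* and *Itga1* are neighbours on chromosome 13, on the same strand, with 26037 bases and 0 annotated genes between them. *Pelo*, a gene for an RNA surveillance factor, lies inside *Itga1* on the same strand, from 115878565 to 115880396. The bases upstream of this pair are shown because both genes had high ratios. They come from RefSeq on GRCm38.p6 and are the 250 bases before the annotated start, at chr13:115101965-115102214 for *Itga1* and chr13:114932101-114932350 for *Itga2*, both on the - strand of that build. Neither stretch held any of the 4 motifs searched, so no letters are in capitals.
Itga1: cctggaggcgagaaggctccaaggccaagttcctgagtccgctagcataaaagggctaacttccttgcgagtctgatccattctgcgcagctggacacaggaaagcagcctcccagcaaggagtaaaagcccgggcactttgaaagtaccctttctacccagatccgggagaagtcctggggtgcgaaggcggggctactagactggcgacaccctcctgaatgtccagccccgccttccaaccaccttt
Itga2: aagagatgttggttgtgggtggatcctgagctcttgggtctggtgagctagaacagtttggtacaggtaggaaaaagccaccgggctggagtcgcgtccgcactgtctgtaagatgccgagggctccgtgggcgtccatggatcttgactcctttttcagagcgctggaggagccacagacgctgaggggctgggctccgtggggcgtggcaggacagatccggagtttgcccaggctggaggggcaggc

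In windows that run from 250 bases before to 50 bases after the start, 4 motifs were searched on both strands. GGGCGG, the core of the Sp1 motif, was in 7 of the 10 windows listed for 8 members, and in 35.7% of all 32851 windows of that length. *Itga1* was among the windows without it, and in *Itga2* it lay 2 bases after the start. TATAAA was in 0 of the 10 windows, against 13.6% of all, and TGANTCA, the AP-1 motif, in 1, for *Itga3*, against 7.81% of all. CCAAT was in 1 of the 10, against 37.4% of all. Such matches are letters in a window and were not tied to the levels. *Itga6* and *Itgb3* were not in the table of windows.

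Of 18 other genes with integrin names, which include the integrin-like *Itgbl1*, 7 were listed in the tables. *Itgb4*, the partner of *Itga6* in hemidesmosomes, was the only one of these whose authors' mean reached 100, at 521 and 600, or 74.3 and 85.5 per kilobase, which placed it beside *Itgb5*. *Itga7*, a laminin receptor subunit of muscle, had authors' means of 86.0 and 89.1. *Itga2b*, the platelet partner of *Itgb3*, had 32.8 and 22.1, and *Itga10*, a collagen receptor subunit of cartilage, 11.4 and 13.2. *Itgb2*, the beta subunit of leukocytes, had 12.2 and 5.88, *Itgae* 4.02 and 2.16, and *Itgb8*, another partner of *Itgav*, 3.76 and 6.21. Log2 ratios between the tables for these 7 genes ran from -1.13 for *Itgb2* to 0.66 for *Itgb8*, both at low means, with 3 above 0 and 4 below. That of *Itga10* was 0.14. The leukocyte alpha subunits *Itgal*, *Itgam*, *Itgax* and *Itgad* were not listed, and neither were *Itga4*, *Itga8*, *Itga9*, *Itga11*, *Itgb7*, *Itgb2l* and *Itgbl1*. The tables start at an authors' mean of 1.56 and 1.92, so a gene that is not listed may have been expressed below what the authors kept.

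Of 25 genes for proteins that bind integrin tails or link them to actin, 24 have an entry under the symbol used in GENCODE M1. All 24 were listed, and the authors' mean of 21 reached 100 in each table. *Tns2* has no entry under that symbol, so its level was not looked up. The most abundant per kilobase were the actin crosslinkers *Flna* (1394 and 1630), *Actn4* (1292 and 1327) and *Actn1* (1189 and 1215), close to *Itgb1*. Of the talins, which bind the NPxY motif, *Tln1* reached 351 and 383 per kilobase and *Tln2* 9.78 and 11.1. Of the kindlins, which bind next to talin, *Fermt2* reached 172 and 200, *Fermt1*, the epithelial form, 88.9 and 110, and *Fermt3*, the form of blood cells, 12.5 and 11.0. Of the complex of integrin-linked kinase, *Ilk* reached 494 and 438, *Lims2* 199 and 226, and *Lims1* 173 and 156. In the same complex, *Parva* reached 309 and 311, *Parvb* 15.9 and 15.7, and *Parvg* 2.97 and 2.61. *Itgb1bp1*, an inhibitor that competes for the tail of *Itgb1*, reached 33.8 and 35.4. Log2 ratios between the tables ran from -0.26 to 0.24 over the 24 genes, with a median of -0.03, 9 above 0 and 15 below. None reached the values of *Itga2*, *Itga1* or *Itgav*, but those members were chosen with their changes known. The lowest of these values, that of *Itgav*, was itself above 96.8% of the 7757 genes, and the lists were not compared by a test. Of the 24 genes, *Fermt1* had the highest log2 ratio, 0.24. *Ilk* had -0.24, *Lims1* -0.22, *Parva* -0.06, *Parvb* -0.09 and *Parvg* -0.25, while *Lims2* had 0.11.

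**Figure D4:**
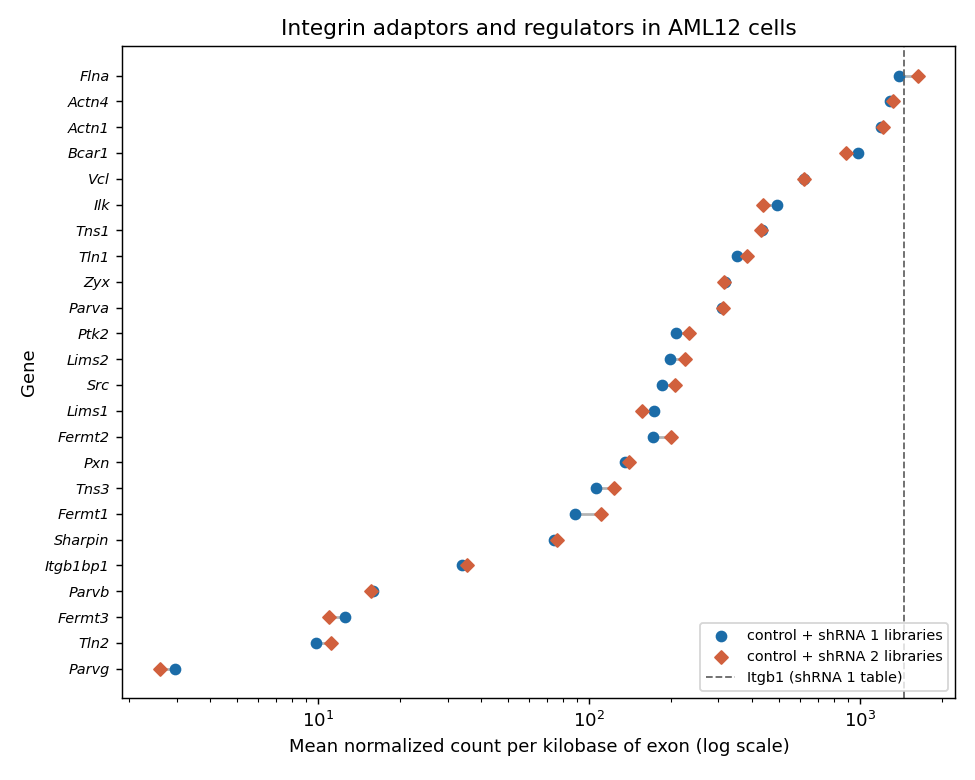
RNA level of the 24 listed adaptors and regulators, as the authors' mean normalized count per kilobase of exon on a log axis. Circles pool control and shRNA 1 libraries, diamonds control and shRNA 2 libraries, and the dashed line is *Itgb1* in the shRNA 1 table (1452). *Flna*, *Actn4* and *Actn1* lie next to that line, and *Parvg* is lowest, at 2.97 and 2.61.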

How the data were processed

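The study's methods give polyA enrichment and strand-specific libraries but name a kit for total RNA, so the RNA selection is not settled. Reads were mapped by the authors to mm9 with TopHat2, uniquely mapped pairs were counted on GENCODE M1 genes with HTSeq, and DESeq2 version 1.8.2 was run with default parameters (versions of TopHat2 and HTSeq are not given in the sources used here). The deposited signal used here is the mean normalized count of each gene, which the authors averaged over the libraries of a comparison. The deposited tables also hold columns for log2 fold change between a hairpin and control, with a standard error, a statistic, a p-value and an adjusted p-value, which are the authors' own comparisons and were not used. Gene identifiers matched GENCODE M1 on NCBIM37 for 13424 of 13424 and 13478 of 13478 rows.

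Means were divided by the exonic bases of each gene, shares and places among all listed genes were computed, and the 2 tables were compared by the ratio of their means, scaled by the median over genes with a mean of at least 100. The calculation of the ratio was tried on simulated libraries in which the same controls entered both pooled means. This cannot show that they did so in these data. No test could be run on pooled means, and their precision is unknown. Groups were taken from the sample titles. The members, gene lists and settings were chosen with earlier results of these data known. The genes named are the members, *Srrm2*, all other integrin subunits, *Itgbl1*, and genes of a list of adaptors and of cell type markers. Also named are the 7 genes that overlap a member, of which only *Pelo* is listed. Listed genes near *Itga2* and *Itga1* were chosen after values were seen. Alternatives were another gene length, other scalings, a pseudocount of 1, other minimum means and the other table. Python 3.11.15, numpy 2.4.6, pandas 2.3.3 and matplotlib 3.10.9 were used.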

Additional observations from a re-analysis of the deposited data

How the results depend on the processing

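Of the 10 levels per kilobase in the shRNA 1 table, the length of the longest coding transcript in place of all exonic bases moved 2 by over 1.5 times, *Itga6* to 113 and *Itgav* to 511, and the share of *Itga6* to 6.58%. Without division by length the share of *Itga2* was 7.79%, that of *Itga5* 8.05%, that of *Itgav* 38.9% and that of *Itgb6* 13.2%. The log2 ratio of *Itga5* turned to 0.042 without scaling and that of *Itga3* to -0.0015 when the median was taken over all genes. The other levels and shares moved by less than 1.5 times, all places among listed genes by less than 10 points, and the other ratios by less than 0.1. No paired analysis was possible because the tables hold no value per library. For the same reason no library could be left out, and the spread between replicates cannot be told apart from the differences given.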

Other observations

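Within 1000000 bases on either side of the pair *Itga2* and *Itga1*, 5 other genes were listed in both tables, named here by their place after the ratios of the pair had been seen. *Mocs2*, a gene of molybdenum cofactor synthesis just beyond *Itga2*, had authors' means of 175 and 182 and a log2 ratio of -0.01 between the tables. *Ndufs4*, a subunit of mitochondrial complex I, had 198 and 209 and a log2 ratio of 0.01. *Arl15*, at authors' means of 73.2 and 67.6, had -0.18, *Fst*, which encodes the activin inhibitor follistatin, had -0.27 at 16.1 and 14.0, and *Pelo* had -0.11. The pair was singled out for its high ratios of 0.39 and 0.33, above 99.2% and 98.5% of the 7757 genes. That the 5 other listed genes of this stretch had lower ratios is therefore only a description, without a test of the difference. Of these 5, 3 had an authors' mean of at least 100 in both tables.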
